A study of Mus musculus with 16 samples.

Results

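LLC cachectic muscle was compared with LLC control muscle, using 4 of the 16 RNA-seq samples in the series, 2 in each group. The members were taken by their labels, and every gene in the table of 12021 genes was tested. LLC cachectic samples and LLC control samples both came from tibialis anterior muscle of C57BL/6J mice. LLC is the usual abbreviation of Lewis lung carcinoma, a transplantable mouse tumour, although the labels give the abbreviation alone. The other 12 samples come from cachectic and control muscle of the KPP (C57BL/6J), KPC (mixed strain) and C26 (CD2F1) models, with 2 samples in each group. The sources used here do not state the age of the mice, the dose of tumour cells or the time at which muscle was taken. Nothing in the labels says that the samples of a group came from separate animals, so the spread behind the p-values may be technical. That spread was estimated for each gene over all 16 samples of the series, not from the LLC samples alone. The tibialis anterior is a fast muscle, and its defining transcripts were present in every LLC sample, with Myh4, the myosin heavy chain of the fastest fibres, at 16.02 and 15.95 in LLC cachectic samples and 15.71 and 15.75 in LLC controls in log2 CPM. CPM is a gene's number of reads scaled to the size of its library.

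Cachexia is the loss of muscle and fat that accompanies cancer and other chronic disease. Muscle protein is degraded through the ubiquitin-proteasome system, in which ligases such as Fbxo32 and Trim63 mark proteins for the proteasome, and through autophagy, which delivers cell contents to lysosomes. FoxO transcription factors, glucocorticoids, inflammatory cytokines acting through STAT3 and NF-kB, and a loss of insulin-like growth factor signalling are known to drive both routes, while myostatin and activins restrain muscle growth.

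The 4 LLC libraries held 33539424 to 42462854 reads assigned to genes, recovered as whole reads from the deposited values. The LLC controls resembled each other across genes (Pearson r = 0.992, over genes, which are not replicates), with 87 genes more than 1 log2 unit apart, whereas the LLC cachectic samples had r = 0.964 and 863 such genes. Both pairs differed by more than sampling noise, with a chi-square per degree of freedom of 185 in LLC cachectic and 13.8 in LLC control, so no library was taken as another deposited again. That comparison sets libraries against counting noise alone, and separate preparations of 1 muscle could also exceed it. Mitochondrially encoded transcripts took 7.97% and 8.91% of reads in LLC cachectic samples and 12.84% and 13.04% in LLC controls.

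Of the 12021 genes, 851 were called at an adjusted p below 0.05 in limma's moderated test with Benjamini-Hochberg adjustment, which is 7.08% of the table. Among them 411 rose in LLC cachectic muscle, or 3.42% of the table, and 440 fell, or 3.66%. A log2 change of at least 1 in size was found in 178 of the rises and 220 of the falls, and 785 of the called genes were protein coding. The groups did not overlap for any called gene, but this also held for 6902 of all genes. The largest rises included the globins and Alas2 of haem synthesis, and the largest falls the fibrillar collagens Col1a1, Col1a2 and Col3a1, tendon genes and the muscle LIM-domain gene Csrp3. All values below are log2 CPM. A change is the mean of the LLC cachectic samples minus the mean of the LLC controls with the standard error of the fit (n = 2 each). That error pools the spread of all groups in the series. The standard deviation of the difference between samples was 0.56 in LLC cachectic, against 0.24 to 0.53 in the other groups. The pooled error can therefore understate the spread of the LLC cachectic samples.

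**Figure D1:**
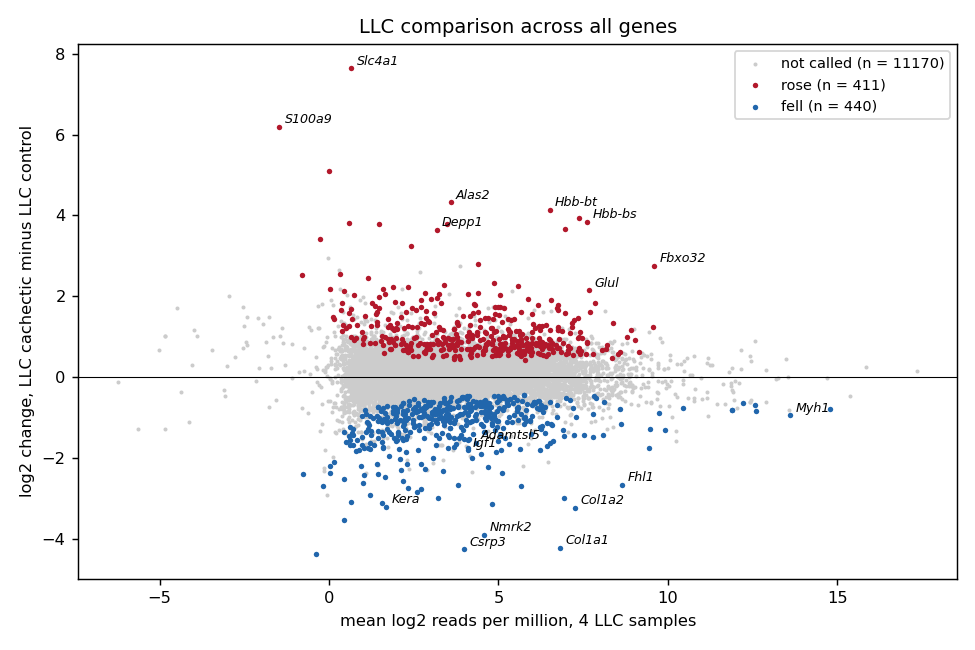
Log2 change of each gene in LLC cachectic minus LLC control muscle (vertical axis) against its mean log2 CPM over the 4 LLC samples (horizontal axis). Red points are the 411 genes that rose, blue points the 440 that fell and grey points the genes not called. Slc4a1, S100a9 and the globin genes lie at the top, and Csrp3 and Col1a1 near the bottom.

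These counts depended on single libraries. Without LLC cachectic 1, 69 genes were called, and without LLC cachectic 2, 3711. Without LLC control 1 the count was 77 and without LLC control 2 it was 3. Of the 851 called genes, 38 stayed called in at least 3 of these 4 fits, and 3 in all of them: Slc4a1, Fhl1 and Adamtsl5. In a fit of the 4 LLC samples alone, without the spread estimated from the other models, no gene was called by limma, while 2249 had an unadjusted p below 0.05 and the smallest adjusted p was 0.0759. The strand setting of the counting program is not stated in the labels. Where a gene overlaps a measured gene on the opposite strand, their reads in the overlap therefore cannot be told apart. Among genes named in the text this holds for Alas2, Depp1, Nmrk2, Irf5, Glul, Cp, Myh1, Myh2, Cebpd, Dnaja4, Dbp, Echs1, Hspb6 and Cnp, and by fewer than 100 bases for Map1lc3b, Eng, Plin4, Eef1b2 and mt-Co1.

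Red-cell transcripts were far higher in LLC cachectic muscle than in LLC controls, by 12.7-fold for Hba-a2, 20.03-fold for Alas2 and a depth-scaled read ratio of 160 for Slc4a1. Of the 11 erythroid markers listed, 8 were measured and 6 rose: the alpha-globins Hba-a1 and Hba-a2, the beta-globins Hbb-bs and Hbb-bt, Alas2 and Slc4a1. Their median change over all 8 measured genes was 3.89, against 0.10 for all genes, of which 3.42% rose. The 5′ flanks of 4 of the rising genes are shown because these genes moved together. Each is the stretch of 150 bases upstream of the RefSeq transcript start, in build GRCm38.p6, on the strand of the gene; GENCODE M21 places some of these starts elsewhere.
Hba-a1 (chr11:32283522-32283671, plus strand): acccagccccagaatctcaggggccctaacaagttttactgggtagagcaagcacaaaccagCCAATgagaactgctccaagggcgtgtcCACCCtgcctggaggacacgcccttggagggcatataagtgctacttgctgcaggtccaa
Hbb-bs (chr7:103827929-103828078, minus strand): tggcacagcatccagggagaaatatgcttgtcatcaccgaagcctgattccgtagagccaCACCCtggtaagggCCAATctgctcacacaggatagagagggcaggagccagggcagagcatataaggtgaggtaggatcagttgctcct
Hbb-bt (chr7:103813924-103814073, minus strand): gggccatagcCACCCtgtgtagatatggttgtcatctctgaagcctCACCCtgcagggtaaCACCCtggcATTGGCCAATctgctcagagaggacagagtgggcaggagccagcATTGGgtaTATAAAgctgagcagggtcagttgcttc
Alas2 (chrX:150547267-150547416, plus strand): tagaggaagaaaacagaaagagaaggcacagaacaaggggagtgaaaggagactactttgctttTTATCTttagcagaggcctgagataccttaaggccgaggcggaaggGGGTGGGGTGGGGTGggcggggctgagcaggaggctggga
Capitals mark matches on either strand to 4 motifs. They are CACCC, a site of Klf1-type factors, CCAAT, the box of many promoters, AGATAA, a site of the erythroid factor Gata1, and TATAAA, a box found near transcript starts. The 3 globin flanks all hold CACCC and CCAAT, Hbb-bt alone holds TATAAA, and Alas2 holds AGATAA and a run of CACCC matches on the other strand but no CCAAT. No match overlaps another. Among 32851 RefSeq windows of the same length, CACCC occurs in 37.4%, CCAAT in 24.5%, TATAAA in 7.57% and AGATAA in 5.65%. A match describes these letters and is not evidence of binding. The Hba-a1 and Hba-a2 flanks share an unbroken run of 147 of 150 bases, and the paralogous globins are similar enough that reads may have been split between copies, so the alpha-globin and beta-globin values are best read as pairs.

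Hbb-bt had 9.13 and 8.02 in LLC cachectic samples, against 4.34 and 4.54 in LLC controls, a change of 4.14 ± 0.50 (adjusted p = 0.00319), or 17.6-fold. Hba-a1 had 9.92 and 8.75, against 5.30 and 5.49, a change of 3.94 ± 0.48 (adjusted p = 0.00335). Both cachectic samples lay far above both controls, cachectic 1 above cachectic 2. Alas2, the erythroid form of the rate-limiting enzyme of haem synthesis, had 6.33 and 5.16, against 1.30 and 1.55, a change of 4.32 ± 0.58 (adjusted p = 0.00468). Slc4a1, the red-cell anion exchanger band 3, was counted with 1395 and 534 reads in LLC cachectic samples and 1 and 10 reads in LLC controls. Pooled over each group this is 1929 reads against 11, a depth-scaled ratio of 160 with a 95% interval of 89.3 to 321 that covers counting error only, and its fitted change of 7.64 ± 0.87 (adjusted p = 0.00319) depends on the 0.5 reads added before the log. Tent5c, a poly(A) polymerase, rose by 3.78 ± 0.48 (adjusted p = 0.0034).

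The remaining measured erythroid markers, which other cells also express, were not called. Fech, the enzyme that inserts iron into haem, had a change of 0.24, with 6.87 and 6.76 in LLC cachectic samples against 6.58 and 6.56 in LLC controls. Bpgm, which makes the haemoglobin ligand bisphosphoglycerate, had 5.42 and 6.27 against 5.67 and 5.73, with the groups overlapping. The summed level of the 8 markers was 3455 and 1789 CPM in LLC cachectic samples and 291 and 311 in LLC controls. In bulk muscle, more cells of a type and more RNA per cell cannot be told apart, nor can fewer cells and less RNA per cell. The 6 erythroid rises were called without LLC cachectic 2 and without LLC control 1, 7 genes rose without LLC cachectic 1, and only Slc4a1 stayed called without LLC control 2, where Hbb-bt had an adjusted p of 0.0532 and a change of 4.24.

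**Figure D2:**
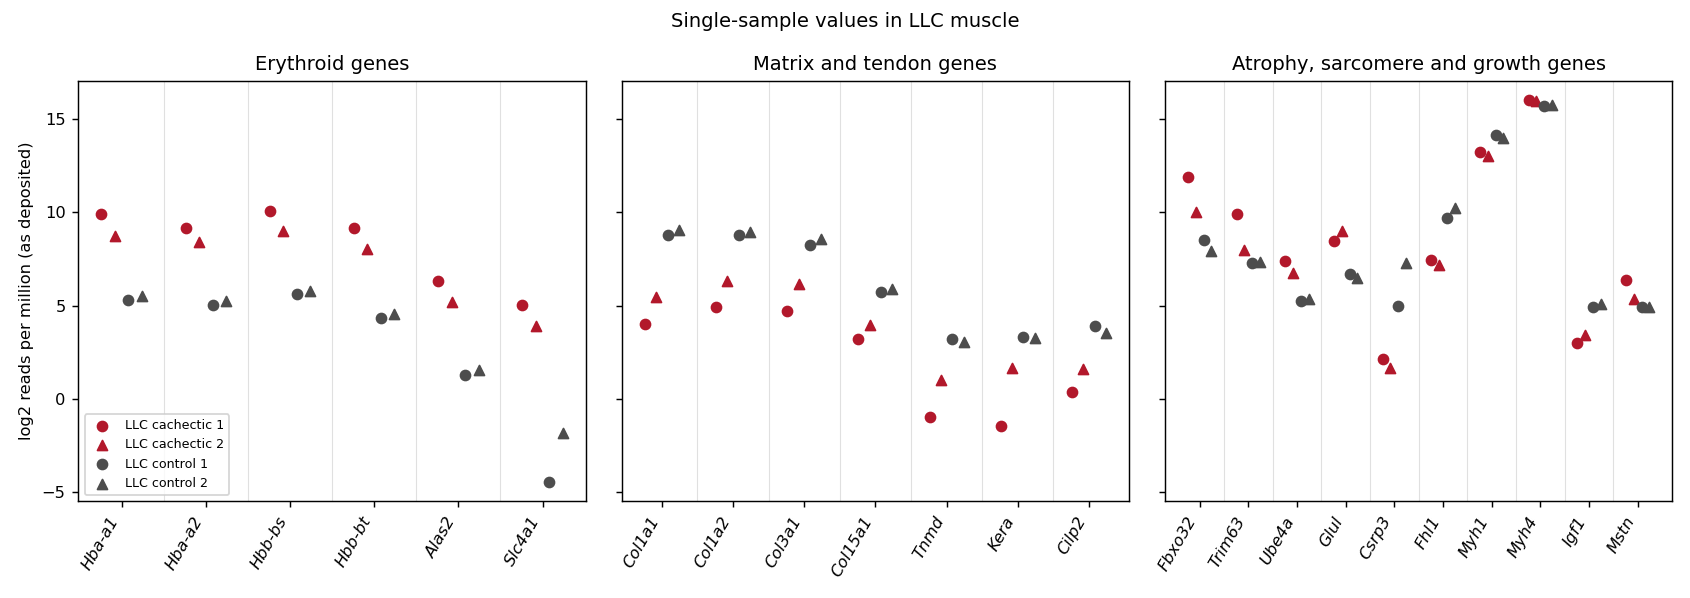
Log2 CPM (vertical axis) of erythroid genes, matrix and tendon genes, and atrophy, sarcomere and growth genes in each LLC sample. Red marks are LLC cachectic samples, grey marks LLC controls, circles sample 1 and triangles sample 2. The globins, Alas2 and Slc4a1 of both cachectic samples lie above both controls, the collagens and tendon genes below, while Myh4 stands between 15.71 and 16.02 throughout.

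Several of the other largest rises had both LLC cachectic samples well above both LLC controls. Depp1, a FoxO-induced regulator of autophagy, had 4.70 and 5.30 in LLC cachectic samples, against 0.92 and 1.79 in LLC controls, and rose by 3.65 ± 0.79 (adjusted p = 0.0241). Acer2, an alkaline ceramidase, had 3.62 and 4.49, against 1.01 and 0.61, and rose by 3.24 ± 0.45 (adjusted p = 0.00579). Cachectic 2 was the higher in both. Egln3, a prolyl hydroxylase that targets hypoxia-inducible factor, had 7.32 and 4.74, against 3.63 and 3.77, and rose by 2.33 ± 0.53 (adjusted p = 0.0297), with cachectic 1 far above cachectic 2. Klhl38, a kelch-repeat protein, had 6.60 and 6.79, against 4.61 and 4.27, and rose by 2.26 ± 0.40 (adjusted p = 0.0147). Ctxn3, Nxpe3 and Inmt were also among the 15 largest rises with a mean of at least 1, the last an indolethylamine methyltransferase. Among these, only Acer2 was called in 3 of the 4 fits that left out a library, with an adjusted p of 0.0907 without LLC control 2.

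Some of the largest falls belong to none of the gene groups described below. Irf5, an interferon regulatory factor of myeloid cells, had 1.29 and 2.19 in LLC cachectic samples, against 4.62 and 4.80 in LLC controls, and fell by 2.98 ± 0.40 (adjusted p = 0.00468). Papln, papilin, a matrix glycoprotein, had -0.07 and -0.42, against 2.42 and 2.90, and fell by 2.91 ± 0.47 (adjusted p = 0.0098). Bdh1, the mitochondrial dehydrogenase of ketone body metabolism, had 0.98 and 1.36, against 4.02 and 3.97, and fell by 2.83 ± 0.68 (adjusted p = 0.0355). The groups lay more than 2 units apart in all these genes. Nrep, a small neuronal regeneration-related protein, had 2.33 and 4.18, against 6.40 and 6.38, and fell by 3.14 ± 0.68 (adjusted p = 0.0248), with cachectic 1 the lower. Irf5 had an adjusted p of 0.0837 without LLC control 2 and stayed called without any 1 of the other LLC samples.

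Genes of the extracellular matrix were lower in LLC cachectic muscle. Of 46 measured matrix genes 20 fell and 0 rose, with 39 changes below 0 and a median of -0.85, against 3.66% of all genes falling. The falls covered the fibrillar collagens of tendon and endomysium (Col1a1, Col1a2, Col3a1, Col5a1, Col5a2), the microfibrillar collagen VI (Col6a1, Col6a2, Col6a3), the basement-membrane genes Col4a2, Col15a1, Col18a1 and Hspg2, and the collagen chaperone Serpinh1. Col1a1, the alpha-1 chain of type I collagen (chromosome 11, 94936224 to 94953042, plus strand, GRCm38), had 4.01 and 5.43 in LLC cachectic samples, against 8.79 and 9.06 in LLC controls. It fell by 4.21 ± 0.75 (adjusted p = 0.0146), so that controls were 18.5-fold higher. Col3a1, the fibrillar collagen of loose connective tissue, had 4.72 and 6.14, against 8.27 and 8.56, and fell by 2.99 ± 0.61 (adjusted p = 0.0208). Both cachectic samples lay below both controls for these genes, cachectic 1 the lower.

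Col15a1, a collagen next to basement membranes, had 3.22 and 3.93 in LLC cachectic samples, against 5.72 and 5.88 in LLC controls, a change of -2.23 ± 0.28 (adjusted p = 0.00335). Serpinh1 had 4.81 and 4.56, against 5.62 and 5.98, a change of -1.12 ± 0.18 (adjusted p = 0.0098). Its cachectic values lay close together, as did those of Sparc, a collagen-binding matricellular protein, with 6.45 and 6.61 against 7.78 and 8.11. Sparc changed by -1.42 ± 0.24 (adjusted p = 0.012). Genes outside this decrease included Dcn, the small proteoglycan decorin, at 0.22 and not called.

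All 10 measured tendon markers were lower in both LLC cachectic samples, and 6 of them fell, with a median change of -2.31. Over all genes 3.66% fell, and the median was 0.10. Tnmd, tenomodulin, the membrane protein of mature tendon cells, had -0.98 and 1.01 in LLC cachectic samples, against 3.21 and 3.05 in LLC controls, and fell by 3.12 ± 0.73 (adjusted p = 0.0325). Scx, scleraxis, the transcription factor that specifies tendon, had 0.03 and 0.51, against 2.06 and 1.96, and fell by 1.74 ± 0.43 (adjusted p = 0.0384). Kera, the corneal and tendon proteoglycan keratocan, was counted with 15 and 110 reads, against 331 and 364, and fell by 3.20 ± 0.82 (adjusted p = 0.0411). Its cachectic samples lay farther from each other than cachectic 2 lay from the controls. Col11a1, Thbs4 and Cilp2 were the other called members. The summed level of the tendon markers was 65.1 and 161 CPM in LLC cachectic samples and 327 and 370 in LLC controls.

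Markers of the fibroblasts and fibro-adipogenic progenitors that make muscle collagen had 0 rises and 1 fall among 13 measured. Over all genes 3.42% rose and 3.66% fell. The median change of the 13 markers was -0.38, and 10 changes were below 0, against 4886 of all 12021 genes. An unadjusted p below 0.05 in limma was found for 7 of the 13, against 3523 of all genes. Thy1 fell by 2.20 ± 0.41 (adjusted p = 0.0162), with -0.79 and 0.48 against 1.78 and 2.29. Pdgfra, the receptor that marks the progenitors, had a change of 0.04, Ly6a of 0.68 and Cd34 of -0.38. The summed level of the 13 markers overlapped between groups, at 778 and 1173 CPM in LLC cachectic samples and 1144 and 946 in LLC controls. The part of either cell type in the matrix decrease was not tested. Leaving out LLC control 2 left 0 matrix and 0 tendon calls, leaving out LLC cachectic 1 left 2 and 0, leaving out LLC control 1 left 5 and 0, and leaving out LLC cachectic 2 raised them to 31 and 10. For the fibroblast and progenitor list, 7 markers fell without LLC cachectic 2 and 0 were called without any 1 of the other LLC samples.

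Among 25 measured ubiquitin ligases and atrophy genes, 4 rose and 0 fell, with a median change of 0.32, against 3.42% rising and a median of 0.10 over all genes. Fbxo32, or atrogin-1, the muscle-specific ligase that targets MyoD and other substrates, had 11.89 and 10.03 in LLC cachectic samples, against 8.49 and 7.93 in LLC controls, and rose by 2.75 ± 0.56 (adjusted p = 0.0208). Trim63, or MuRF1, the ligase that targets thick-filament proteins, had 9.92 and 8.0, against 7.29 and 7.33, and its change of 1.65 ± 0.58 was not called (adjusted p = 0.0903). Both genes were highest in cachectic 1, and Trim63 had a change of 0.69 without it (adjusted p = 0.55). Ube4a, a ubiquitin chain elongation factor, had 7.36 and 6.77, against 5.24 and 5.34, and rose by 1.78 ± 0.27 (adjusted p = 0.00847). Cblb, which degrades the insulin receptor substrate Irs1, rose by 0.77 ± 0.16 (adjusted p = 0.0234), and Ubr2, an N-degron ligase, by 0.58 ± 0.15 (adjusted p = 0.0439). Fbxo30, or MUSA1, which is known from denervation atrophy in mice, had 4.70 and 4.35 against 4.42 and 4.21 and overlapped between groups. The ligase list had 12 rises and 2 falls without LLC cachectic 2 and 0 calls without any 1 of the other LLC samples. Fbxo32 and Ube4a kept their calls without LLC cachectic 2 only, and Fbxo32 had an adjusted p of 0.134 and a change of 1.82 without LLC cachectic 1.

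Proteasome subunits and assembly factors separated the cachectic samples from each other. Of 37 measured, 0 were called, against 7.08% of all genes. Among the 37, 35 changes were above 0, against 7135 of all 12021 genes. An unadjusted p below 0.05 in limma was found for 14 of them, against 3523 of all genes. Their median lay 1.47 above the control mean in LLC cachectic 1 and 0.05 below it in LLC cachectic 2 (-0.05). Psmd4, the ubiquitin receptor Rpn10 of the proteasome cap, had 8.46 and 6.48 in LLC cachectic samples, against 6.28 and 6.23 in LLC controls, a change of 1.21 ± 0.49 (adjusted p = 0.125). Psmc1, an ATPase of the cap, had 7.45 and 6.07, against 5.99 and 5.95 (adjusted p = 0.123). In both genes cachectic 1 stood apart and cachectic 2 lay near the controls. Without LLC cachectic 2, 34 proteasome genes rose.

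Autophagy genes rose in 7 of 32 cases and fell in 0, against 3.42% of all genes rising. Bnip3 and Bnip3l are receptors that send mitochondria into autophagosomes, and Map1lc3a, Map1lc3b and Gabarapl1 encode the proteins that are coupled to the autophagosome membrane. Bnip3 had 9.43 and 7.58 in LLC cachectic samples, against 6.90 and 6.87 in LLC controls, and rose by 1.62 ± 0.43 (adjusted p = 0.0441). Map1lc3b had 8.56 and 7.33, against 6.56 and 6.48, and rose by 1.42 ± 0.37 (adjusted p = 0.0412). Map1lc3a had 6.65 and 6.51, against 5.93 and 5.65, and rose by 0.79 ± 0.15 (adjusted p = 0.0152). The first pair was higher in cachectic 1, while the Map1lc3a values of the cachectic samples were alike. Bnip3l, Calcoco1, Gabarapl1 and Atg9a were the other rises. Of 28 lysosome genes 2 rose: Ctsl, the protease cathepsin L, with 8.42 and 6.61 against 5.57 and 5.61 (1.92 ± 0.47, adjusted p = 0.0371), and Lamp2, a lysosomal membrane protein (0.82 ± 0.22, adjusted p = 0.047). Without LLC cachectic 1, or without LLC control 2, 0 of the autophagy and lysosome genes were called. Without LLC control 1, 1 autophagy gene and 0 lysosome genes rose, and without LLC cachectic 2, 16 and 13 rose.

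Among 20 FoxO factors and targets, 8 rose and 1 fell, with a median change of 0.97, against 3.42% rising, 3.66% falling and a median of 0.10 over all genes. Foxo3, a FoxO factor that drives atrophy genes in mouse muscle, had 5.85 and 5.99 in LLC cachectic samples, against 5.08 and 4.87 in LLC controls, and rose by 0.95 ± 0.21 (adjusted p = 0.0248). Foxo1 had 4.51 and 4.70, against 3.79 and 3.75, a change of 0.83 ± 0.39 that was not called (adjusted p = 0.172). Foxo6 went the other way, with 17 and 25 reads against 139 and 192, a fall of 3.08 ± 0.72 (adjusted p = 0.0327). None of these genes overlapped between groups. Sesn1, a brake on mTORC1, rose by 1.47 ± 0.40 (adjusted p = 0.047), and Ccng2, an atypical cyclin, by 1.03 ± 0.20 (adjusted p = 0.0189). The list shares Fbxo32, Trim63, Fbxo30 and other members with the ligases, and Map1lc3b, Gabarapl1 and Bnip3 with the autophagy genes. It shares Klf15 and Sesn1 with the genes described next.

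Glucocorticoid-induced genes rose in 6 of 22 measured cases and fell in 0, with a median change of 1.17, against 3.42% rising and a median of 0.10 over all genes. Glul, glutamine synthetase, which makes the glutamine that muscle exports, had 8.48 and 9.0 in LLC cachectic samples, against 6.68 and 6.48 in LLC controls, and rose by 2.15 ± 0.29 (adjusted p = 0.00501), or 4.45-fold. Here cachectic 2 was the higher of the cachectic samples, and the call was kept in 3 of the 4 fits that left out a library, with an adjusted p of 0.0866 without LLC control 2. Klf15, a glucocorticoid-receptor target that drives amino acid breakdown, had 6.36 and 6.01, against 4.75 and 4.71 (1.45 ± 0.24, adjusted p = 0.0112). Pik3r1, the p85 subunit of PI3-kinase, had 7.84 and 7.48, against 5.93 and 5.83 (1.78 ± 0.31, adjusted p = 0.0136). The cachectic values of both genes lay more than 1 unit above the controls. Zbtb16, Arrdc2 and Sesn1 were the other rises. Cebpd, an acute-phase transcription factor, had 4.46 and 6.03 against 2.60 and 2.38, and its change of 2.75 ± 0.78 was not called (adjusted p = 0.0522), with cachectic 2 the higher. Fkbp5, the receptor co-chaperone, had 7.05 and 6.12 against 5.26 and 5.0 (adjusted p = 0.067). The FoxO list had 0 rises without LLC cachectic 1 or LLC control 2, 1 without LLC control 1 and 11, with 2 falls, without LLC cachectic 2. The glucocorticoid list had 1 rise without LLC cachectic 1, 0 without LLC control 2, 1 without LLC control 1, and 8 rises and 1 fall without LLC cachectic 2.

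Among 25 insulin and IGF signalling genes, 2 rose and 1 fell, against 3.42% and 3.66% of all genes, and 10 had an unadjusted p below 0.05. Igf1, the growth factor that sustains muscle mass (chromosome 10, 87858265 to 87937042, plus strand, GRCm38), had 2.98 and 3.40 in LLC cachectic samples, against 4.91 and 5.07 in LLC controls. It fell by 1.80 ± 0.21 (adjusted p = 0.00319), and controls were 3.48-fold higher. Igfbp3, which binds circulating insulin-like growth factors, had 5.41 and 4.99, against 3.52 and 3.30, and rose by 1.79 ± 0.27 (adjusted p = 0.00847). Neither gene overlapped between groups, and Pik3r1, described above, was the other call. The list had 1 rise and 1 fall without LLC cachectic 1 and without LLC control 1, 0 calls without LLC control 2, and 7 rises and 3 falls without LLC cachectic 2. The Igf1 call held without either cachectic sample and without LLC control 1, and had an adjusted p of 0.0591 without LLC control 2.

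Myostatin, activin and BMP signalling genes changed in both directions, with 4 rises and 3 falls among 27 measured and a median change of 0.26, against 3.42% rising, 3.66% falling and a median of 0.10 over all genes. Mstn, myostatin, the muscle-secreted inhibitor of muscle growth, had 6.39 and 5.33 in LLC cachectic samples, against 4.92 and 4.92 in LLC controls, and rose by 0.95 ± 0.26 at the edge of the threshold (adjusted p = 0.0499). Acvr1b, a type I receptor for myostatin and activins, rose by 0.97 ± 0.26 (adjusted p = 0.0431). Id1, a target of BMP signalling, had 3.86 and 3.36, against 1.99 and 2.27, and rose by 1.48 ± 0.24 (adjusted p = 0.0098). Id3, its paralogue, rose by 1.11 ± 0.20 (adjusted p = 0.0147). Smad3, which relays myostatin and activin signals, had 5.45 and 5.76, against 6.81 and 6.85, and fell by 1.22 ± 0.23 (adjusted p = 0.0171). The groups did not overlap in any of these genes. Acvr1, a BMP receptor, and Fstl1, a secreted follistatin-like protein, were the other falls. Without LLC cachectic 1 or LLC control 2, 0 genes of the list were called, without LLC control 1 there was 1 rise, and without LLC cachectic 2 there were 8 rises and 5 falls.

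In the acute-phase and STAT3 list, 6 of 22 measured genes rose and 0 fell, with a median change of 0.92, against 3.42% rising and a median of 0.10 over all genes. Pim1, a STAT3-induced kinase, had 5.83 and 5.03 in LLC cachectic samples, against 3.36 and 3.35 in LLC controls, and rose by 2.08 ± 0.48 (adjusted p = 0.0304). Il6ra, the interleukin-6 receptor, had 4.31 and 3.65, against 2.04 and 2.02 (1.95 ± 0.48, adjusted p = 0.0384). Osmr, the oncostatin M receptor, had 4.94 and 5.37, against 3.84 and 3.64 (1.41 ± 0.35, adjusted p = 0.0383). Cachectic samples lay above controls in all these genes, and Serpina3n, Cebpb and Cp were the other rises. Serpina3n, an acute-phase protease inhibitor, had 3.27 and 2.48 against 0.47 and 1.58. Lcn2, a siderophore-binding protein of neutrophils and inflamed tissue, had 2.50 and 0.74 against -0.86 and -1.19, not called (adjusted p = 0.0818). Socs3, the feedback inhibitor of this pathway, had 2.59 and 2.11 against 1.58 and 1.96 (adjusted p = 0.492). The list had 7 rises and 1 fall without LLC cachectic 2, and 0 calls without any 1 of the other LLC samples.

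NF-kB and interferon genes had 1 rise each, to be read against the 3.42% of all genes that rose. Of 17 NF-kB genes measured 1 rose, Icam1, the endothelial adhesion molecule, with 2.48 and 2.44 against 1.33 and 1.66 (0.96 ± 0.24, adjusted p = 0.0366). Interferon-stimulated genes showed 1 rise among 26, Rsad2, the antiviral enzyme viperin, with 4.16 and 4.41 against 2.59 and 1.87 (2.06 ± 0.44, adjusted p = 0.0232). Immune-cell markers were low. Among the 3 neutrophil markers measured, S100a9, a calcium-binding protein that neutrophils carry in bulk, had 97 and 146 reads in LLC cachectic samples and 1 read in each LLC control. Pooled, 243 reads against 2 give a depth-scaled ratio of 111 with a 95% interval of 30.4 to 922 for counting error, and the gene was called (adjusted p = 0.0152). Csf3r, the granulocyte growth factor receptor, had 79 and 90 reads, against 14 and 20, and rose by 2.17 ± 0.57 (adjusted p = 0.0431). Their groups lay far apart, although the 3 markers together summed to 9.81 and 8.34 CPM in LLC cachectic samples and 1.03 and 1.02 in LLC controls. Of 12 measured macrophage markers Lyz2 rose by 1.02 ± 0.23 (adjusted p = 0.0292), 11 changes were above 0 and the summed level was 112 and 191 CPM against 83.2 and 137. Their part in the inflammatory genes was not tested. The NF-kB list had 7 rises and 1 fall without LLC cachectic 2. None of these genes was called without LLC control 1 or LLC control 2, and without LLC cachectic 1 Lyz2 was the only one called.

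Markers of blood vessels moved both ways. Of 14 endothelial markers Vwf, the clotting factor carrier, Flt1, a VEGF receptor, and Eng, a TGF-beta co-receptor, rose, and Aplnr, the apelin receptor, fell. Over all genes 3.42% rose and 3.66% fell. With quantile normalization 0 of the endothelial markers rose and 1 fell. Aplnr had 1.73 and 2.43 in LLC cachectic samples, against 3.87 and 4.28 in LLC controls, a fall of 2.0 ± 0.39 (adjusted p = 0.0183). Vwf rose by 0.90 and Eng by 0.53. The summed level of the endothelial markers was 688 and 756 CPM in LLC cachectic samples and 617 and 646 in LLC controls. Cspg4, the pericyte proteoglycan NG2, was the 1 fall among 9 pericyte and smooth muscle markers (-0.96). No endothelial gene was called in the fits without LLC cachectic 1, LLC control 1 or LLC control 2.

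Most sarcomere genes were not called. Of 27 fast-fibre and sarcomere genes 0 rose and 3 fell, with a median of -0.17. Over all genes 3.42% rose and 3.66% fell, with a median of 0.10. An unadjusted p below 0.05 in limma was found for 13 of the 27, against 3523 of all 12021 genes. The counts depended on scaling: with quantile normalization 3 of the 27 rose and 2 fell, with a median of -0.0046. Myh1, the myosin of type 2X fibres, had 13.26 and 13.02 in LLC cachectic samples, against 14.15 and 14.00 in LLC controls, and fell by 0.94 ± 0.19 (adjusted p = 0.0215). Myh2, the myosin of type 2A fibres, had 9.05 and 9.47, against 10.13 and 10.99, and fell by 1.30 ± 0.30 (adjusted p = 0.0303). Ldb3, a Z-disc protein, was the other fall (-0.89 ± 0.24, adjusted p = 0.0468). Myh4 had a change of 0.26 ± 0.19 (adjusted p = 0.386), and of 0 after quantile normalization. Acta1, skeletal actin, had 12.69 and 13.64 against 14.06 and 13.90 (adjusted p = 0.0686). The 3 falls were reduced to 0 without LLC cachectic 1 or LLC control 2 and to 1 without LLC control 1, and 8 genes fell and 1 rose without LLC cachectic 2.

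Csrp3, Ankrd2, Fhl1 and Hspb6, which act at the sarcomere or its Z-disc or as muscle chaperones, fell. Csrp3, muscle LIM protein, a Z-disc mechanosensor enriched in slow fibres, had 2.12 and 1.62 in LLC cachectic samples, against 4.95 and 7.30 in LLC controls, and fell by 4.25 ± 0.74 (adjusted p = 0.0136). Ankrd2, a stretch-induced ankyrin repeat protein, had 5.10 and 3.56, against 6.15 and 7.88, and fell by 2.69 ± 0.67 (adjusted p = 0.0382). The controls of both genes were far apart, control 2 the higher. Csrp3 was not called without LLC control 2 (-3.08, adjusted p = 0.162) or LLC cachectic 1 (adjusted p = 0.0603), and Ankrd2 was called in none of the 4 fits that left out a library. Fhl1, a LIM-domain protein of the sarcomere that is mutated in inherited myopathies (chromosome X, 56731787 to 56793346, plus strand, GRCm38), had 7.45 and 7.19, against 9.71 and 10.24, and fell by 2.66 ± 0.27 (adjusted p = 0.00179). Its groups were compact, and its adjusted p stayed between 0.000516 and 0.0395 when each LLC library was left out in turn. Hspb6, a small heat shock protein of muscle, had 7.47 and 7.27, against 8.52 and 9.08, and fell by 1.43 ± 0.22 (adjusted p = 0.00912). Dnaja4 was the other fall among 26 chaperones, and 3.66% of all genes fell. Hspb6 lost its call without LLC control 2 only (adjusted p = 0.138). The other 10 measured slow-fibre genes were not called, among them Myh7, the slow myosin, which had 1.46 and 3.0 against 1.92 and 2.10, with overlapping groups. The summed level of the 12 slow-fibre genes was 175 and 166 CPM in LLC cachectic samples and 250 and 586 in LLC controls. That sum includes Csrp3 and Ankrd2, so it does not describe the uncalled slow-fibre genes. The median change of the 12 genes was -0.12, with 5 changes above 0 and 7 below.

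Of 10 muscle methyltransferase and NAD salvage genes, 3 fell and 0 rose, against 3.66% and 3.42% of all genes. Nmrk2, the muscle nicotinamide riboside kinase, had 1.62 and 3.66 in LLC cachectic samples, against 6.90 and 6.17 in LLC controls, and fell by 3.90 ± 0.90 (adjusted p = 0.0304). Mettl21c, a muscle protein-lysine methyltransferase, had 1.52 and 3.41, against 4.99 and 5.27, and fell by 2.67 ± 0.53 (adjusted p = 0.0189). In both genes the cachectic samples lay about 2 units apart, cachectic 1 the lower, yet below both controls. Nmnat1, a nuclear NAD synthase of most cells, was the remaining fall (-0.48 ± 0.13, adjusted p = 0.0439). Without LLC cachectic 2, 4 genes of the list fell and 1 rose, and without any 1 of the other LLC samples none was called.

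Mitochondrially encoded genes fell in 5 of 15 cases, and nuclear respiratory genes in 2 of 76, against 3.66% of all genes. All 15 mitochondrially encoded genes had changes below 0, with a median of -0.62, and the called ones were mt-Co1, mt-Co2, mt-Nd1, mt-Nd2 and mt-Cytb. With quantile normalization 1 of them was called. mt-Co1, a core subunit of cytochrome oxidase, had 14.21 and 14.55 in LLC cachectic samples, against 15.15 and 15.18 in LLC controls, and fell by 0.79 ± 0.19 (adjusted p = 0.0337). Of 76 nuclear-encoded respiratory chain and ATP synthase genes, 72 changes were below 0 with a median of -0.38, and the called ones were Ndufa8 and Ndufb10, both of complex I. Ndufa8 had 5.61 and 5.93, against 6.41 and 6.40 (-0.64 ± 0.16, adjusted p = 0.0398). Both cachectic samples lay below both controls in these genes. Perm1, a muscle regulator of mitochondrial biogenesis, had 6.66 and 6.94, against 8.17 and 8.30, and fell by 1.43 ± 0.38 (adjusted p = 0.0431). Ppargc1b, a coactivator of the same programme, fell by 1.06 ± 0.20 (adjusted p = 0.0162), whereas its relative Ppargc1a had 4.98 and 4.92 against 5.59 and 5.47 and was not called (adjusted p = 0.316). Idh2, the mitochondrial NADP-dependent isocitrate dehydrogenase, rose, with 7.34 and 7.37 against 6.17 and 6.19 (1.18 ± 0.21, adjusted p = 0.0147). No gene of these lists was called without LLC cachectic 1, LLC control 1 or LLC control 2, and without LLC cachectic 2, 9 mitochondrially encoded and 28 nuclear respiratory genes fell.

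Genes of fuel use had 1 call among 28 for glycolysis and glycogen and 2 among 31 for fatty acids, against 7.08% of all genes called. Lipid droplet and fat synthesis genes had 5 calls among 22, of which 2 were rises and 3 were falls. Pgam2, the muscle phosphoglycerate mutase, had 8.24 and 9.41 in LLC cachectic samples, against 10.03 and 10.16 in LLC controls, and its fall of 1.27 ± 0.33 (adjusted p = 0.0413) was the glycolytic call. Cd36, the fatty acid transporter, had 8.81 and 8.37, against 7.82 and 7.76, and rose by 0.80 ± 0.18 (adjusted p = 0.0276), with Echs1 the other fatty acid call. Plin4, a lipid droplet coat protein, had 9.12 and 9.0, against 7.83 and 7.62, and rose by 1.33 ± 0.28 (adjusted p = 0.0224). The cachectic values exceed the controls in Cd36 and Plin4. Pnpla2, or ATGL, the first lipase of triglyceride breakdown, rose by 1.24 ± 0.26 (adjusted p = 0.0229). Pdk4, which blocks glucose oxidation in fasting, had 6.36 and 9.09 against 6.82 and 7.51 and overlapped between groups. Without LLC cachectic 2 its change was -0.80, the opposite sign of the 0.56 from all samples. Adipoq, the adipocyte hormone adiponectin, had 2.02 and 2.47 against 0.47 and 0.48, the 1 called of 7 adipocyte markers, whose sum was 163 and 209 CPM in LLC cachectic samples and 118 and 113 in LLC controls. The part of fat cells in the lipid genes was not tested. Among the lists of fuel and fat genes, none was called without LLC control 1 or LLC control 2, and 1 lipid gene fell without LLC cachectic 1. Without LLC cachectic 2, glycolysis genes had 3 rises and 8 falls, fatty acid genes 6 and 2, and lipid droplet genes 6 and 4.

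Cytosolic ribosomal protein genes were higher together. Of 78 measured, 28 rose and 0 fell, against 3.42% and 3.66% of all genes. Their changes were above 0 in 77 cases and the median was 0.57, against a median of 0.10 for all genes. Rplp0, a stalk protein of the large subunit, had 8.87 and 8.76 in LLC cachectic samples, against 8.30 and 8.20 in LLC controls, and rose by 0.57 ± 0.11 (adjusted p = 0.018). The rise of Rplp0 was small but present in both cachectic samples. The median of the 78 ribosomal protein genes lay 0.81 above the control mean in LLC cachectic 1 and 0.35 in LLC cachectic 2. Of 32 translation factors 1 rose, Eef1b2 (0.53 ± 0.13, adjusted p = 0.0333), although 30 changes were above 0. Without LLC cachectic 2, 67 ribosomal protein genes rose and 1 fell, and without any 1 of the other LLC samples 0 were called.

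Haem and stress genes included Hmox1, haem oxygenase, which breaks down haem, with 3.07 and 3.55 in LLC cachectic samples against 1.63 and 1.56 in LLC controls (1.71 ± 0.31, adjusted p = 0.0152). Gclm, a subunit of the enzyme that starts glutathione synthesis, rose by 1.52 ± 0.41 (adjusted p = 0.0451), and Gsta4, a glutathione transferase, fell by 1.55 ± 0.30 (adjusted p = 0.018). Among 20 antioxidant genes 4 rose and 1 fell, against 3.42% and 3.66% of all genes. Dbp, a clock-controlled transcription factor, had 3.94 and 4.39 against 5.96 and 5.98 and fell by 1.81 ± 0.29 (adjusted p = 0.0098). It was the 1 fall among 18 clock genes, and the hour at which muscle was taken is not stated. Gadd45a, a growth-arrest gene that denervation also induces, rose by 1.19 ± 0.25 (adjusted p = 0.0239), with 4.06 and 4.47 against 3.16 and 3.0. Metallothioneins, zinc-binding proteins, were not called. Mt1 had 6.28 and 3.10 against 2.66 and 3.30, with cachectic 1 alone above both controls. Mt2 had 3.23 and 0.74 against -0.23 and 0.24, with both cachectic samples above both controls (limma, adjusted p = 0.161). Myogenic factors gave 0 calls among 16 measured, with 4 at an unadjusted p below 0.05, and 6 Schwann cell and 5 proliferation markers gave 0 calls by limma, with 1 and 0 at an unadjusted p below 0.05. The 8 epithelial markers that would report carcinoma cells were all outside the table used here. Among the antioxidant, clock and p53 lists, no gene was called without LLC control 1 or LLC control 2, and Hmox1 was the 1 called without LLC cachectic 1. Without LLC cachectic 2, antioxidant genes had 13 rises and 2 falls, clock genes 5 and 2, and p53 genes 7 rises and 0 falls.

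The LLC cachectic samples differed from each other in the size of most responses. Over the called rises, the median distance from the control mean was 1.08 in LLC cachectic 1 and 0.78 in LLC cachectic 2, and over the called falls it was -1.17 and -0.80. The larger distance was that of LLC cachectic 1 in 674 of the 851 called genes. The choice of genes used the mean of these samples, so this is a description. Lists whose median lay above the control mean in cachectic 1 alone included proteasome genes, lysosome genes (0.42 and -0.04) and myogenic factors (0.40 and -0.0083). Antioxidant genes lay at 1.04 in cachectic 1 and 0.03 in cachectic 2. Tendon markers lay at a median of -3.27 in cachectic 1 and -1.43 in cachectic 2. The reverse order was seen for glucocorticoid-induced genes (0.72 and 1.02), acute-phase genes (0.83 and 1.01), macrophage markers (0.27 and 0.88) and interferon-stimulated genes (0.0024 and 0.63). In genes such as Fhl1, Klf15 and Map1lc3a the cachectic samples lay close together.

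**Figure D3:**
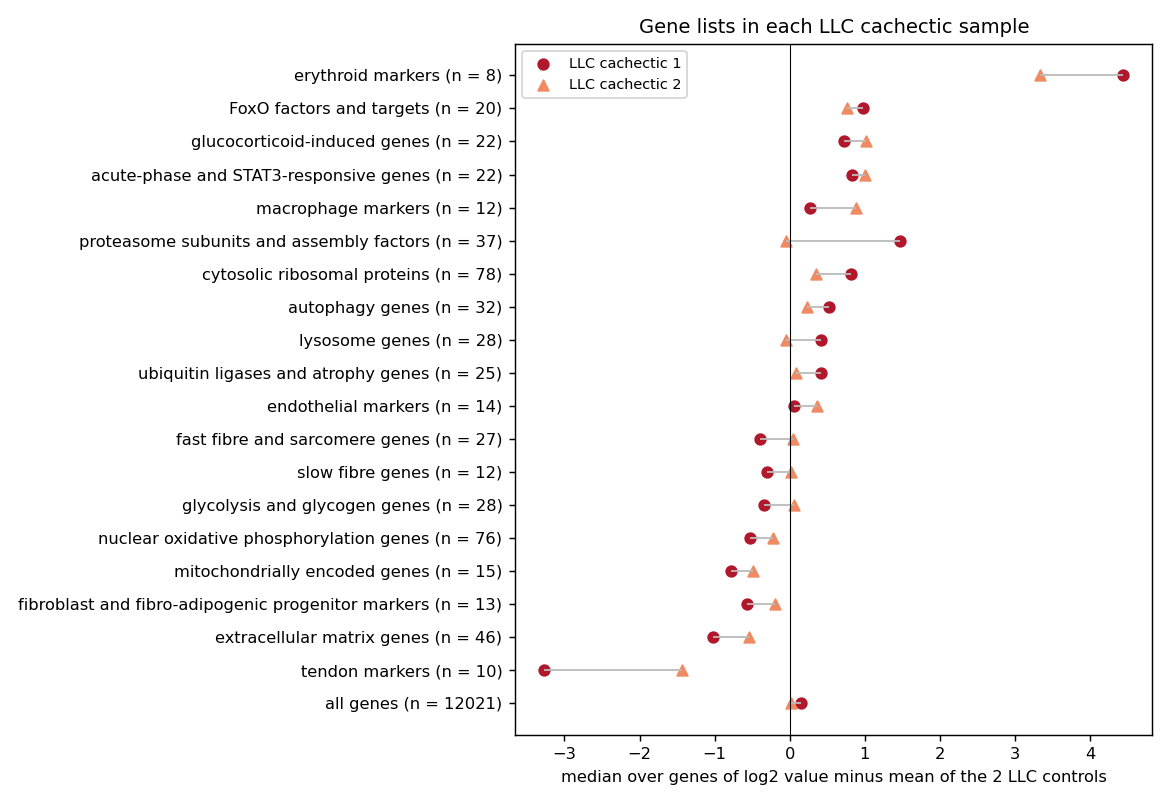
Median over the genes of each list of the log2 value minus the mean of the LLC controls (horizontal axis), for LLC cachectic 1 (red circles) and LLC cachectic 2 (orange triangles), with all genes at the bottom. Proteasome genes lie at 1.47 in cachectic 1 and -0.05 in cachectic 2, while erythroid markers are high and tendon markers low in both.

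**Figure D4:**
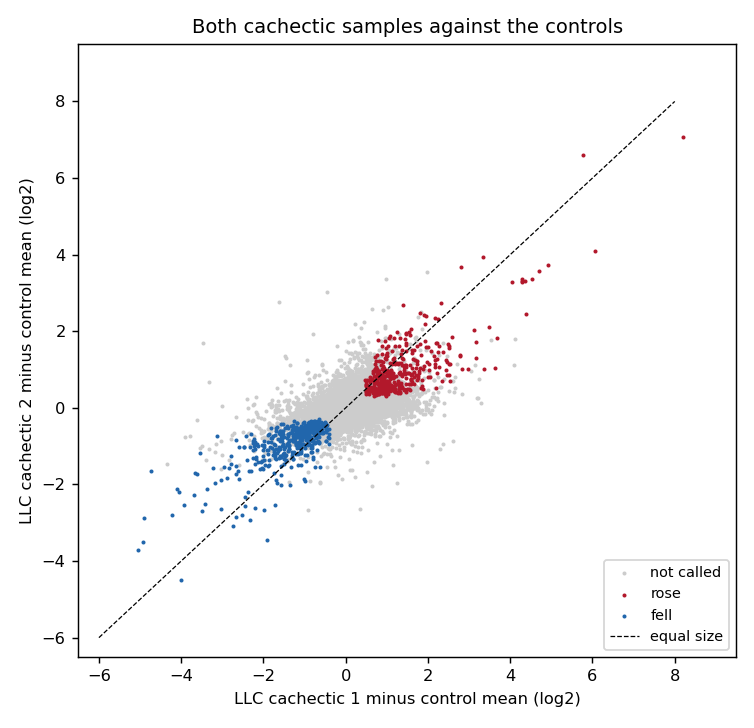
Log2 distance from the control mean in LLC cachectic 1 (horizontal axis) and LLC cachectic 2 (vertical axis) for each gene. Red points rose, blue points fell, grey points were not called and the dashed line marks equal size. Of the 851 called genes, 674 lie farther from 0 in cachectic 1.

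The LLC change of each gene was also set against the mean change of the KPP, KPC and C26 models, each measured against its own controls. KPC cachectic 2 lay with the KPC controls and apart from KPC cachectic 1 on the first principal components, at -23.0 on the first, against 11.3 for KPC cachectic 1 and -25.5 and -27.3 for the KPC controls. Without the KPC samples 2 genes differed. With all samples the difference passed the threshold for 1 gene in limma's test, or 0.00832% of the table, with 1133 genes at an unadjusted p below 0.05. That gene was Adamtsl5, a secreted ADAMTS-like glycoprotein that associates with microfibrils (chromosome 10, 80339110 to 80348412, minus strand, GRCm38). It had 3.27 and 3.77 in LLC cachectic samples, against 5.07 and 5.20 in LLC controls, and fell by 1.61 ± 0.16 (adjusted p = 0.00179). The change was 0.24 in KPP, -0.04 in KPC and 0.11 in C26, so that LLC differed from their mean by -1.72 (adjusted p = 0.00565). Its own adjusted p in LLC stayed at 0.0395 or below whichever LLC library was left out, but the difference from the other models was lost without either LLC control. Without LLC cachectic 1, 6 genes differed from the other models, and without LLC cachectic 2, 969.

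**Figure D5:**
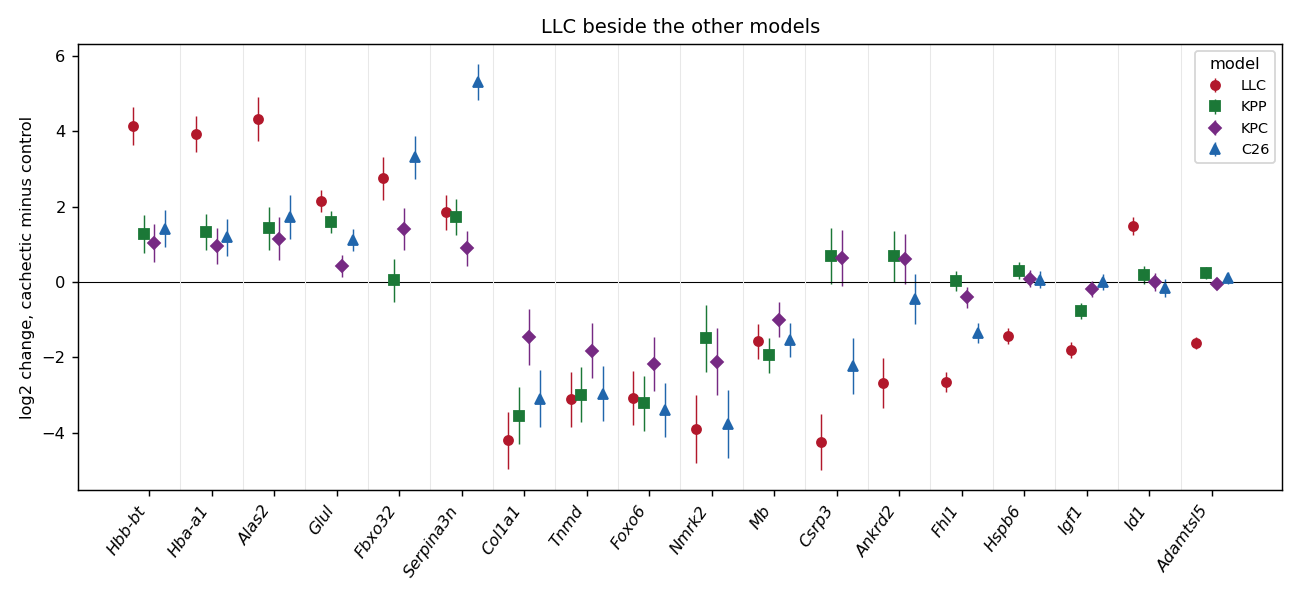
Log2 change in cachectic minus control muscle (vertical axis) with the standard error of the fit, for 18 genes in LLC (red circles), KPP (green squares), KPC (purple diamonds) and C26 (blue triangles), with 2 samples a group. Adamtsl5 lies at -1.61 in LLC and between -0.04 and 0.24 elsewhere, and the globin changes are largest in LLC.

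For other genes the LLC values stood apart without passing that test. The erythroid list had a median change of 3.89 in LLC, 1.30 in KPP, 0.99 in KPC and 1.32 in C26. The difference between LLC and the mean of the others was 2.90 for Hbb-bt (adjusted p = 0.141) and 5.64 for Slc4a1 (adjusted p = 0.0941). Igf1 differed by -1.48 (adjusted p = 0.0896), with changes of -1.80 in LLC, -0.76 in KPP, -0.20 in KPC and 0.01 in C26. Fhl1 differed by -2.08 and Hspb6 by -1.58, both with an adjusted p of 0.0896. Csrp3 fell by 4.25 in LLC, against changes of 0.68 in KPP, 0.64 in KPC and -2.23 in C26 (difference -3.95, adjusted p = 0.174). A p that misses the threshold does not show that the models act alike. The C26 comparison called 3409 genes, 28.4% of the table, and shared 419 of them with LLC, 49.2% of the LLC calls and 12.3% of the C26 calls, with the same sign in 407. The KPP comparison called 214 genes, 1.78% of the table, and shared 80 with LLC, 9.40% of the LLC calls and 37.4% of the KPP calls, with the same sign in 78. Col1a1 had changes of -4.21 in LLC, -3.55 in KPP, -1.46 in KPC and -3.09 in C26. Model and strain cannot be told apart for KPC and C26, whose mice were of other backgrounds, while KPP shares C57BL/6J with LLC.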

How the data were processed

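RNA from tibialis anterior muscle was depleted of ribosomal RNA before sequencing, per the labels' protocols. The authors deposited a table of log2 values per gene, and its values are log2 CPM after 0.5 reads were added to each count, as voom in limma computes them. Genome build GRCm38, featureCounts 1.4.5 and limma are named in the submitters' processing notes; the aligner, annotation, strand setting and low-count filter are not stated there. Whole reads could be recovered for 100% of values (tolerance 0.001 reads), giving 28584279 to 46972882 reads per library over the 16 samples. For 11996 of the 12021 genes the table's identifier had a symbol in the GENCODE M21 annotation, used for coordinates.

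The main test was limma 3.58.1 (R 4.3.3), two-sided, with a trend in the spread, fitted to all 16 samples with a mean for each of 8 groups, and Benjamini-Hochberg adjustment over all genes at a threshold of 0.05. On simulated data for the LLC comparison over 12021 genes, it called 74% of 100 genes changed by a log2 value of 1. Of 100 genes changed by 2 it called 99%, with 7 unchanged genes among 180 calls. The simulation gave each gene 1 spread for all 16 samples and no shifts shared between genes. In the data, 863 genes lay more than 1 log2 unit apart between LLC cachectic samples and 87 between LLC controls. These rates may therefore not hold for the real comparison. Named genes were the 15 largest rises and 15 largest falls (mean over LLC samples 1 or above), up to 4 members per list by smallest p, and fixed atrophy genes; counts per list gave further called members, and genes in the last part of the text were chosen after their values were seen. The members and lists were chosen with earlier results of these data known. Results for some genes are not reported here. Alternatives covered scaling, filtering, added reads, weights, moderation, samples in the fit, a replicate block, thresholds and leaving out each LLC library.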

Additional observations from a re-analysis of the deposited data

Results flagged for a closer look

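Adamtsl5, a secreted ADAMTS-like glycoprotein, differed between LLC and the mean of the KPP, KPC and C26 models by -1.72 on the log2 scale (limma, adjusted p = 0.00565), because it was lower in both LLC cachectic samples than in both LLC controls, with changes of 0.24 in KPP, -0.04 in KPC and 0.11 in C26. No gene was singled out for 1 sample lying far from the rest of its group, since no group had 4 or more samples.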

How the results depend on the processing

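The LLC count of 851 called genes stayed within 1.5 times under both other scalings (946 with quantile normalization, 1007 with centring on the sample median), a filter on low values (710), 5 added reads (859), voom weights (788), no trend (645), robust moderation (821) and C57BL/6J samples alone (592). It became 0 with LLC samples alone, 1410 without KPC samples, 477 with the replicate block, 2106 at an adjusted p below 0.10 and 398 with a log2 change of at least 1. Leaving out 1 LLC library gave 3 to 3711. The count of 1 gene that differed from the other models became 2 with no trend, 2 without KPC samples and 12 at an adjusted p below 0.10, and 0 to 969 when 1 LLC library was left out. The change of Myh4 was 0.00 with quantile normalization. The sign reversed for Pdk4 and for 4 smooth muscle, Schwann cell or proliferation markers, none of them called: on leaving out 1 LLC library the change ranged from -0.359 to 0.0717 for Acta2, -0.541 to 0.0677 for Cnp, -0.0857 to 0.655 for Pcna, -0.71 to 1.17 for Mki67 (also -0.05) and -0.80 to 1.93 for Pdk4. The cause was not tested. With 1 library left in a group, that sample was assumed to vary like those of the other groups. The labels do not say whether replicate numbers pair the samples. Differences between samples 1 and 2 correlated at r = 0.0207 across genes between LLC cachectic and LLC control. With 1 such difference per group, this does not settle whether samples were paired. The replicate block lowered the LLC count from 851 to 477 and changed the count of genes that differed from the other models by 0. Genes with few reads, such as S100a9 and Slc4a1, are limited by depth.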

Other observations

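Collagens outside the matrix and tendon lists also fell in LLC cachectic muscle. Of all 33 measured genes with a collagen symbol 19 fell and 0 rose, with 30 changes below 0 and a median of -1.16. Outside the lists 5 of 16 fell, and 3.66% of all genes fell. Col16a1, a collagen that associates with fibrils, had 1.01 and 2.13 in LLC cachectic samples, against 2.88 and 3.13 in LLC controls, and fell by 1.44 ± 0.31 (limma, adjusted p = 0.0241). Col22a1, found at the myotendinous junction, had 3.31 and 3.73, against 4.56 and 4.62, and fell by 1.07 ± 0.29 (adjusted p = 0.0464). Of 17 ADAMTS and ADAMTS-like genes 2 fell, Adamtsl5 and Adamts8, against 3.66% of all genes. Adamts8, a secreted metalloprotease, had 2.05 and 1.23 against 3.32 and 4.22 (-2.13 ± 0.34, adjusted p = 0.00962). These genes were picked after their values were seen.

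Other genes chosen after their values were seen include the maternally expressed long RNAs of the Dlk1-Dio3 imprinted region. Mirg had -0.43 and 0.15 in LLC cachectic samples, against 1.23 and 1.38 in LLC controls, and fell by 1.45 ± 0.30 (adjusted p = 0.0214). Rian had 2.79 and 3.06, against 3.83 and 4.55, and fell by 1.26 ± 0.32 (adjusted p = 0.0386). Meg3 had 2.91 and 3.33, against 3.81 and 4.35, and was not called (adjusted p = 0.0887). In KPP the changes of the same genes were 2.04 for Mirg, 1.47 for Rian and 1.47 for Meg3, in KPC -0.36, -0.30 and 0.07 in the same order, and in C26 0.0023, -0.17 and -0.34. The LLC change did not pass the test of a difference from the mean of these models (adjusted p = 0.0941 for Mirg, 0.2 for Rian and 0.287 for Meg3). Hey1, a Notch target, had 2.53 and 3.20, against 1.15 and 1.58, and rose by 1.5 ± 0.25 (adjusted p = 0.012). Actn2, an alpha-actinin of the Z-disc, had 8.08 and 8.02, against 8.95 and 9.45, and fell by 1.15 ± 0.19 (adjusted p = 0.0112). Actn3, another alpha-actinin and a member of the fast-fibre list, lay higher in both LLC cachectic samples, at 12.91 and 13.12 against 12.13 and 12.12. Its change of 0.89 ± 0.26 was not called (limma, adjusted p = 0.0547). Ckmt2, the mitochondrial creatine kinase of muscle, had 8.11 and 9.02, against 10.30 and 10.30, and fell by 1.74 ± 0.42 (adjusted p = 0.0354).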
